A study of Mus musculus with 6 samples.

Results

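E2F1 binding was examined at 10 genes of glucose breakdown in mouse fibroblasts: the hexokinases Hk1 and Hk2, the phosphofructokinases Pfkl and Pfkp, their regulators Pfkfb2 and Pfkfb3, the enolase Eno1, the pyruvate kinase Pkm, the lactate dehydrogenase Ldha and the pyruvate dehydrogenase kinase Pdk4. The genes were chosen by name, with earlier results of these data known, out of 21887 protein-coding genes on the assembled chromosomes. Member counts beside the share of all genes are therefore descriptions, not tests. A peak was assigned to a gene when any base of it lay inside the gene or within 1000 bp of its ends. The data are chromatin immunoprecipitation sequencing (ChIP-seq) peak lists from NIH/3T3 cells, an established mouse embryonic fibroblast line. The E2F1 group (2 libraries) carried a stably integrated doxycycline-inducible E2F1 construct and the empty vector group (EV, 2 libraries) the same kind of construct without E2F1. All cells were starved for 48 hours in 0.25% serum and then given doxycycline for 12 hours, at 500 ng/ml by the treatment protocol, although the names of the deposited lists carry a different doxycycline number, so the dose is not certain. The EV cells keep E2F1 of their own, and neither the antibody nor the number of clones behind each line is given in the sources used here. Input DNA of the EV cells (2 samples) was not analysed here. Nothing in the labels says that libraries of a group came from separate cultures, so the spread between them may be technical.

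The lists held 7836 and 8027 peaks in E2F1 replicates 1 and 2, and 70 and 358 in EV replicates 1 and 2. Each peak has a fold enrichment, the authors' ratio of reads piled up at the summit to the local background. Whether that background came from input DNA or from the same library is not given in the sources used here. Median folds were 9.19 and 11.3 in the E2F1 lists, so folds are ranked within a list. No library totals were used. The genome-wide background, solved from the deposited folds and p-values and rising with depth, was 1.85, 1.86, 2.20 and 1.18 reads in the same order of libraries. At that background a pileup of 16 reads passed the lists' p-value limit of 1e-10 in each E2F1 library, 17 reads in EV replicate 1 and 13 reads in EV replicate 2. Where the local background is higher, more reads are needed, so a gene without a listed peak can still hold signal.

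Glycolysis splits glucose into pyruvate. Hexokinase traps glucose in the cell as glucose 6-phosphate, phosphofructokinase makes the committing step, and enolase and pyruvate kinase complete the route to pyruvate. Pyruvate is then either reduced to lactate by lactate dehydrogenase or oxidised in the mitochondrion by the pyruvate dehydrogenase complex, which the Pdk kinases switch off. Proliferating fibroblasts are known for high glycolysis, and E2F1, a transcription factor of the G1/S transition, has been linked to several of these genes in other cells.

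The promoters of Ldha, Hk2 and Hk1 are shown as examples that lie under peaks of both E2F1 libraries. Windows of Eno1 and Pkm did so too and are not shown. A further Hk1 start and the starts of Pfkp and Pdk4 are examples where no library listed a peak. The share of shown promoters with a marked word is therefore not that of all member windows. Each sequence is the 250 bases before a RefSeq start (GRCm38.p6), read 5′ to 3′ on the strand of the gene. Capitals mark words of an E2F site of 7 letters on either strand: the word TTCCCGC, then the word TTCGCGC, then the word TTGCCGC, and last the word TTGGCGC.
Ldha, chr7:46845554-46845803, plus strand: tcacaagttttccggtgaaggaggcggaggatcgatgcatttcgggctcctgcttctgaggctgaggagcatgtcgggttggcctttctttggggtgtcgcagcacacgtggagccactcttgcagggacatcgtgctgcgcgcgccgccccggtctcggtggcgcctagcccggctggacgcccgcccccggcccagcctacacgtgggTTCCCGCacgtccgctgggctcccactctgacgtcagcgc
Hk2, chr6:82774455-82774704, minus strand: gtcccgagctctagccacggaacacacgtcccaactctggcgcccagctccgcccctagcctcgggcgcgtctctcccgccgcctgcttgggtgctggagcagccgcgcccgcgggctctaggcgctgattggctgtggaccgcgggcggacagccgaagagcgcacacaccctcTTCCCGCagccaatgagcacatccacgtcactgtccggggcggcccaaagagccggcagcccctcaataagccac
Hk1 inner start, chr10:62340422-62340671, minus strand: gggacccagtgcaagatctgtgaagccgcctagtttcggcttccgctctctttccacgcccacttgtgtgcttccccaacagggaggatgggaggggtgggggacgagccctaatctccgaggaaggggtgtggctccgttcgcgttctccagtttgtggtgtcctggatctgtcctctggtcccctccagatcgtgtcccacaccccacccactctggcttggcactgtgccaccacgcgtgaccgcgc
Hk1 upstream start, chr10:62379909-62380158, minus strand: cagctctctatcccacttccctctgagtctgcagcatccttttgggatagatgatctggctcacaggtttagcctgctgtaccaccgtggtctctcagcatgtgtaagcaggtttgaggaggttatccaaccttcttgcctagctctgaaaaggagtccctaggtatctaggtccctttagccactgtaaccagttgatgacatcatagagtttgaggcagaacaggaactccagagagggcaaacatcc
Pfkp, chr13:6648772-6649021, minus strand: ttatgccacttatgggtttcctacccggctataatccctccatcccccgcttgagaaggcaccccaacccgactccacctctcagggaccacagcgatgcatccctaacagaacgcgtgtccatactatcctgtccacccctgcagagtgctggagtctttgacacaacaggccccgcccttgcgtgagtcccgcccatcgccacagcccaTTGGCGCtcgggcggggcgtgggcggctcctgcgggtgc
Pdk4, chr6:5496279-5496528, minus strand: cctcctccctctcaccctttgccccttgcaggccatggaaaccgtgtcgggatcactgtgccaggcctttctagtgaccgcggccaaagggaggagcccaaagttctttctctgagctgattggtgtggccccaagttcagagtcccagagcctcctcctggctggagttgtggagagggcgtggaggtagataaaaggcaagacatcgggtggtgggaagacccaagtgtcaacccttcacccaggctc

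Hk1, Hk2, Pfkfb2, Eno1, Pkm and Ldha had a peak in both E2F1 lists, 6 of 10 members, against 34.4% of all protein-coding genes (7537 of 21887). With only peaks within 1000 bp of a gene's ends the count was 3 of 10 (Hk2, Eno1 and Pkm), near the 30.9% of all protein-coding genes. The members are longer than usual, with a median span of 31536 bp against 17169 bp, and among the 10790 genes between the shortest and the longest member the share was 43.2%. Pfkl had a peak in E2F1 replicate 1 and not in replicate 2, and Pfkfb3 in replicate 2 and not in replicate 1. Of all protein-coding genes 6.28% had a peak in exactly 1 E2F1 list. Pfkp and Pdk4 had none.

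Neither EV library listed a peak at any of the 10 members, where 0.434% of all protein-coding genes had one in either EV list. The EV peak closest to a member was 2162775 bp away, from Pdk4. Each E2F1 library had peaks at 7 members, where 36.9% and 38.2% of all protein-coding genes had one in replicates 1 and 2. Each EV library had peaks at 0 members, against 0.0366% and 0.407% of all protein-coding genes. The difference of 7 genes had an exact two-sided permutation p of 0.333, the smallest that 2 against 2 libraries can give, so this design cannot pass 0.05.

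**Figure D1:**
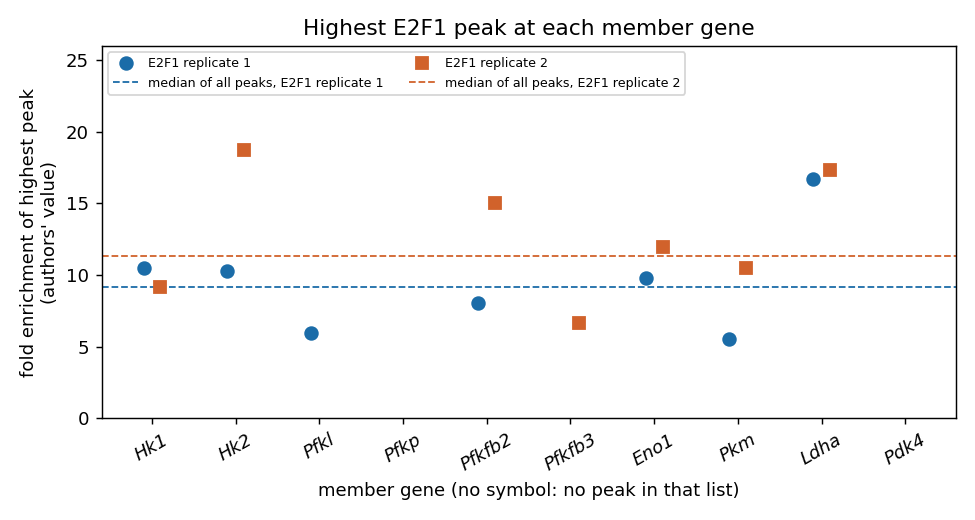
Fold enrichment (authors' value, vertical axis) of the highest peak at each member in E2F1 replicate 1 (circles) and replicate 2 (squares); dashed lines are the medians of all peaks in each list, 9.19 and 11.3. Ldha stands near 17 in both libraries, Pfkl and Pfkfb3 have 1 symbol each, and Pfkp and Pdk4 have none.

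Hexokinases carry out the entry step. Hk2, the inducible and mitochondria-bound isoform of muscle and growing cells, had the widest member peak, 2158 bp in E2F1 replicate 1 (chromosome 6, 82772770 to 82774927), with a fold of 10.3 and rank 3322 of 7836. Its summit lay 162 bp before the Hk2 start. In replicate 2 the same stretch was listed as 2 peaks. The peak just before the start (82774461 to 82774933) had a fold of 18.8, rank 2030 of 8027 and a summit 177 bp before the start, and the peak inside the gene (82772813 to 82773860) had a fold of 8.30, rank 5418 and a summit 1174 bp after it. The start-proximal summits of the libraries were 15 bp apart. In fold units the SD at Hk2 was thus larger than at the other 5 members with peaks in both, with a mean of 14.5 ± 5.99 (SD, n = 2). By percentile within the list it was not the largest. The SD of the percentile was 12.1 at Hk2, 23.2 at Pkm, 16.5 at Pfkfb2, 14.8 at Hk1, 8.28 at Ldha and 1.33 at Eno1.

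Hk1, the hexokinase made in most tissues, has 2 starts in the RefSeq table. Its peak lay at the inner start in both libraries. In E2F1 replicate 1 it spanned 62339549 to 62340831 on chromosome 10, with a fold of 10.5 at rank 3213 and a summit 50 bp from the start. In replicate 2 it spanned 62340023 to 62340653, with a fold of 9.19 at rank 4969 and a summit 10 bp from the start. The upstream start, 39437 bp and 39477 bp from those summits, had no peak in either library. Its window of 300 bp holds 1 CpG against 20 at the inner start. The lower rank in replicate 2 went with a local background of 5.42 reads, 2.92 times the genome-wide value and the highest of all member peaks. The pileup there was 58 reads, against 46 reads in replicate 1. The antisense RNA gene Hk1os starts 237 bp and 197 bp from the summits, so the peak lies at the starts of both genes.

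Phosphofructokinase catalyses the committing step, and neither of its member genes, Pfkl and Pfkp, had a peak in both lists. Pfkl, the liver-type subunit, had 1 peak, in replicate 1 (chromosome 10, 78009442 to 78009773), with a fold of 5.97, rank 6341 of 7836 and a pileup of 28 reads. At 332 bp it was the narrowest member peak, and its summit lay 126 bp after the start. In replicate 2 the nearest peak was 8148 bp from the gene. Pfkp, the platelet-type subunit, had no peak in either library, and the nearest lay 31407 bp away in replicate 1 and 2221608 bp away in replicate 2. The third gene of the family, Pfkm (muscle type), not a member here, had peaks in both libraries with folds of 27.9 and 14.2, but those summits were 188 bp and 47 bp from the start of the SUMO protease gene Senp1 and 598 bp and 739 bp from that of Pfkm.

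The Pfkfb enzymes make and break down fructose 2,6-bisphosphate, the strongest activator of phosphofructokinase. At Pfkfb2, the heart-type form, the peak had a fold of 8.08 at rank 4638 in replicate 1 (chromosome 1, 130716681 to 130718059) and 15.05 at rank 2868 in replicate 2 (130716931 to 130717943). It lay within the span of Pfkfb2 but not at a listed start of that gene. Its summits were 1289 bp and 1259 bp from the nearest Pfkfb2 start, and 10 bp and 20 bp from the start of Yod1, a gene for a deubiquitinating enzyme on the opposite strand. None of the 3 Pfkfb2 promoter windows was touched by a peak. Pfkfb3, the inducible form with high kinase activity in growing cells, had the weakest member peak by score, in replicate 2 only (chromosome 2, 11501340 to 11502065). It had a fold of 6.65, rank 6460 of 8027 and a pileup of 18 reads, just above the 16 that pass. Its summit was 563 bp after the inner Pfkfb3 start and 483 bp from the start of the predicted gene Gm52500. In replicate 1 the nearest peak was 48489 bp from Pfkfb3. The upstream start of Pfkfb3, whose window holds 30 CpG, had no peak in either library.

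Enolase and pyruvate kinase complete the route to pyruvate. Eno1, the enolase of most tissues, gave the most even ranks. In replicate 1 its peak (chromosome 4, 150236454 to 150237706) had a fold of 9.79 and exceeded 54.6% of its list, and in replicate 2 (150236614 to 150237463) a fold of 11.9 and 52.7%. The summits were 227 bp and 173 bp from the first of 3 Eno1 starts, all of them under the peak, and the nearest start of another gene, Car6, was 35800 bp and 35746 bp away. Pkm encodes the pyruvate kinases M1 and M2 by alternative splicing. Its peak had a fold of 5.56 at rank 6803 in replicate 1 (chromosome 9, 59656084 to 59657529), with a pileup of 26 reads, and 10.5 at rank 4331 in replicate 2 (59656004 to 59657072), with 29 reads. The pileups were close, and the local backgrounds were 3.86 and 1.86 reads. The Pkm summits were also the farthest apart of the start-proximal pairs, at 461 bp, one 181 bp after the start and the other 280 bp before it. The start of the predicted gene Gm51708 lay 851 bp and 390 bp from them in replicates 1 and 2.

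At the pyruvate branch point, Ldha and Pdk4 differed. Ldha, the lactate dehydrogenase subunit that favours lactate production, had the highest member fold in replicate 1 (16.7, rank 1376 of 7836, chromosome 7, 46845222 to 46846746) and the next highest in replicate 2 (17.3, rank 2350 of 8027, 46845402 to 46846363). The mean was 17.0 ± 0.457 (SD, n = 2), the smallest spread in fold of the members with peaks in both lists. By percentile within the list the smallest SD was 1.33 at Eno1, against 8.28 at Ldha. The Ldha pileups were 69 and 84 reads. The summits lay 177 bp and 126 bp before the start at 46845804, 51 bp apart, and the other listed Ldha start, at 46847082, was outside both peaks. Pdk4, which blocks the entry of pyruvate into the mitochondrial oxidation route in fasted and quiescent cells, had no peak, and the nearest lay 184690 bp from the gene in replicate 1 and 184666 bp in replicate 2.

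**Figure D2:**
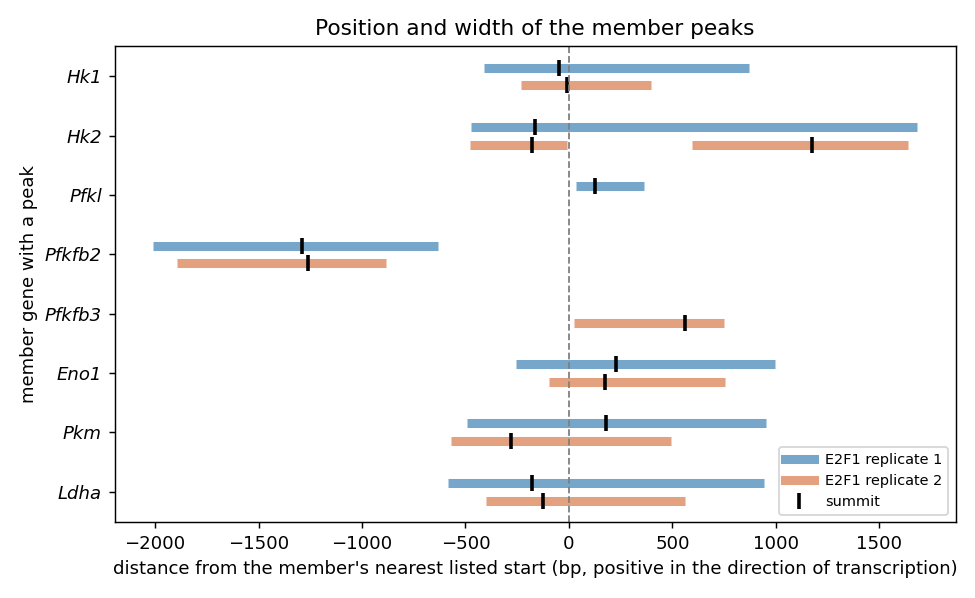
Extent (bars) and summit (black ticks) of each member peak in E2F1 replicate 1 (upper bar) and replicate 2 (lower bar), by distance in bp from the member's nearest listed start, positive in the direction of transcription. The Pfkfb2 bars lie upstream of the start with their summits 1289 bp and 1259 bp from it, and the Hk2 region is 1 bar of 2158 bp in replicate 1 and 2 bars in replicate 2.

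By fold, the members with a peak in both lists ran in replicate 1 from Ldha through Hk1, Hk2, Eno1 and Pfkfb2 to Pkm, and in replicate 2 from Hk2 through Ldha, Pfkfb2, Eno1 and Pkm to Hk1. The means over both were 17.0 at Ldha, 14.5 at Hk2, 11.6 at Pfkfb2, 10.9 at Eno1, 9.85 at Hk1 and 8.03 at Pkm. The SDs of the last 4 were 4.93, 1.51, 0.935 and 3.49, and no neighbouring means in this order differed by more than the larger of their SDs. The order within the group is therefore not resolved, apart from Ldha and Hk2 leading it in replicate 2 and Ldha in replicate 1. The median of these means was 11.2, close to the 11.8 of all protein-coding genes with a peak in both lists. When only the upper part of each list was used, from its median score upward, 3 members kept a peak in both lists (Hk1, Hk2 and Ldha), against 17.1% of all protein-coding genes.

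The peaks of the libraries overlapped at all 6 members listed in both. At Hk1, Pfkfb2, Eno1 and Ldha the peak of replicate 2 lay wholly within that of replicate 1. At Pkm 92.5% of its bases did, and at Hk2 all of the inner peak and 98.7% of the start-proximal one. Of the member peaks, 6 of 7 in replicate 1 and 5 of 8 in replicate 2 exceeded their list's median width, 938 bp and 814 bp. The widest in replicate 2, 1069 bp at Pkm, was below that list's upper quartile of 1146 bp. Local backgrounds at member peaks ran from 1.28 to 2.09 times the genome-wide value in replicate 1 and from 1.00 to 2.92 times in replicate 2.

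RefSeq promoter windows, from 250 bases before to 50 after a start, were found for all 10 members, 18 windows in all. Of these, 8 lay under peaks of both E2F1 libraries, 2 under a peak of 1 library and 8 under none. Of all 32851 windows, 6993 lay under a peak in both E2F1 lists and 24327 under no E2F1 peak. Eno1 and Pkm each gave more than 1 of the 8 member windows under peaks of both libraries. The E2F word of 7 letters occurred at Hk2 and Ldha (TTCCCGC in both), at the second Pkm start (TTCCCGC) and at Pfkp (TTGGCGC), in 4 of 18 windows. It occurred in 9.57% of all 32851 windows and in 23.6% of the 6993 windows under a peak in both E2F1 lists. At Hk2 the word began at position -75 from the start, 90 bp and 105 bp from the summits. At Ldha it began at -40, 140 bp and 89 bp from the summits. At Pkm it began at -128 from the second start, 345 bp from the replicate 1 summit, and lay outside the replicate 2 peak. Pfkp, with no listed peak, held its word at -39. No member window held the word of 8 letters (any of the words of 7 preceded by another T), which 2.26% of all windows did.

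Words known for other regulators of glycolysis were also searched on both strands. The E-box CACGTG, bound by Myc family and related factors, occurred at Ldha, Pfkfb2 and Pfkfb3, in 3 of 18 windows against 7.15% of all windows and 10.997% of those under a peak in both E2F1 lists. Of the 3, only the Ldha window lay under peaks of both libraries. The Ldha window held the E-box at -145 and -48, and the first copy lay 35 bp and 16 bp from the summits. The hypoxia response core ACGTG, which each E-box contains on both strands, occurred in 8 of 18 windows, 19.6% of all and 28.3% of those under a peak in both lists. The GC box GGGCGG, which can overlap an E2F word, occurred in 10 of 18, 35.7% of all and 77.2% of those under a peak in both lists. For each word the 18 member windows include 8 under no E2F1 peak, so their counts are not matched to the share under a peak in both lists. Overlapping windows of the same gene repeat the same bases, so windows are not independent.

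CpG number went with the presence of a peak over all promoters. Of windows with 0 to 5 CpG 0.175% lay under a peak in both E2F1 lists, of those with 11 to 15 19.9%, of those with 16 to 20 36.0%, and of those with 21 to 30 56.0%. The 8 member windows under peaks of both libraries held 14 to 30 CpG. Those under none held 1 to 30, with 12 at Pdk4, 21 at Pfkp, 1 at the upstream Hk1 start and 30 at the upstream Pfkfb3 start. The upstream Pfkfb3 window thus equals that of Ldha (30) in CpG number, and the Pfkp window lies between those of Hk1 (20) and Hk2 (25). The part of CpG number in the binding was not tested.

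**Figure D3:**
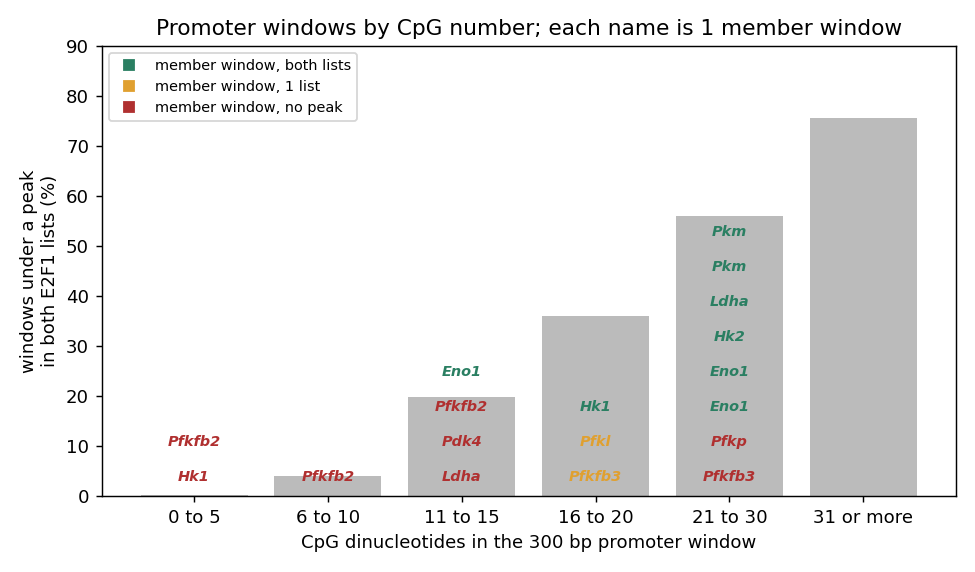
Share of promoter windows of 300 bp under a peak in both E2F1 lists (grey bars, percent) by number of CpG dinucleotides; each name is 1 member window in its class, green with a peak in both lists, amber in 1 and red in none, and the height of a name has no meaning. The share rises from 0.175% at 0 to 5 CpG to 75.6% at 31 or more, and the classes of 11 to 15 and of 21 to 30 CpG each hold member windows with a peak in both lists and with none.

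The other genes of the pathway were taken from a list of 59 that covers the remaining enzymes, isoforms, regulators and transporters. Of these, 28 had a peak in both E2F1 lists (47.5%), against 34.4% of all protein-coding genes. Among protein-coding genes of the members' span range that share was 43.2%. Another 9 had a peak in 1 list, as 6.28% of all protein-coding genes did, and 22 had none. In an EV list 0 of the 59 had a peak, against 0.434% of all protein-coding genes. Among the 28 the median of the mean folds was 8.21, below the 11.8 over all genes with a peak in both lists. At the stricter score 10 of the 59 had a peak in both lists, near the 17.1% of all protein-coding genes.

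The housekeeping enzymes of the middle of the route had weak peaks. Gapdh had folds of 7.996 and 4.92 at its highest peaks, Pgk1 of 5.97 and 12.2, Pgam1 of 5.67 and 5.01, Gpi1 of 6.57 and 9.14, Aldoa of 5.47 and 6.77, and Tpi1 of 7.70 and 5.51, in replicates 1 and 2. All 6 had a peak in both lists, but the Aldoa peaks did not overlap. They spanned 126797744 to 126798241 on chromosome 7 in replicate 1 and 126798534 to 126800135 in replicate 2. All but 1 of the 12 folds lay below their list's median, the exception being Pgk1 in replicate 2. Many isoforms, most of them made in restricted tissues, had none, among them Hk3, Hkdc1, Pgk2, Pgam2, Pklr, Ldhb, Ldhc, Ldhd, Bpgm and Pfkfb4. Peaks in both lists were found for the Eno2, Eno3 and Eno4 enolases, Adpgk, Tigar, Pfkfb1, Aldoc and Gapdhs. Eno3, the muscle enolase, had a mean fold of 15.5 ± 1.97 (SD, n = 2), Adpgk folds of 7.07 and 11.96, and Gapdhs folds of 10.7 and 6.27. Some of these peaks lay at a neighbour's start, those at Aldoc 143 bp and 238 bp from Pigs and those at Gapdhs 119 bp and 150 bp from Tmem147. The Eno4 summits were 110 bp and 122 bp from its own start, and 137 bp and 125 bp from that of Hspa12a. The summits of the highest Eno3 peaks lay 1096 bp and 1205 bp before its own start, and 1430 bp and 1321 bp from that of Pfn1. In replicate 1 that peak was 4047 bp wide and ran over the Pfn1 start. The lower Eno3 peak of replicate 2 had its summit 359 bp from the Pfn1 start. Over the 27 of these genes with a listed start, the gene's own start was the nearest to both summits for 20 (74.1%), against 79.7% of all such genes and 5 of 6 members.

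Around pyruvate dehydrogenase, all 3 genes of the phosphatase that switches the complex on had peaks in both lists, and 1 of the 4 kinases that switch it off. Of all protein-coding genes 34.4% had such a peak. Pdp1 had folds of 8.75 and 31.1, Pdpr, a regulatory subunit of the phosphatase, 15.7 and 22.0, and Pdp2 folds whose mean was 5.94 ± 0.751 (SD, n = 2). Pdp1 has no listed start of its own here, and its peaks also lay within 1000 bp of the gene 1700123M08Rik. Of the kinases, Pdk3 had folds of 10.9 and 11.2, Pdk1 had a peak of 6.59 in replicate 2 and none in replicate 1, and Pdk2 and Pdk4 had none. Of the subunits of the complex, Pdha1 had folds of 9.48 and 5.93, with the summits 31 bp and 50 bp from the start of the predicted gene Gm39547. Pdhb, Dlat, Dld and Pdhx had a peak in 1 library each, and Pdha2 had none. These families have 3 to 6 genes each, and differences between them were not tested.

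**Figure D4:**
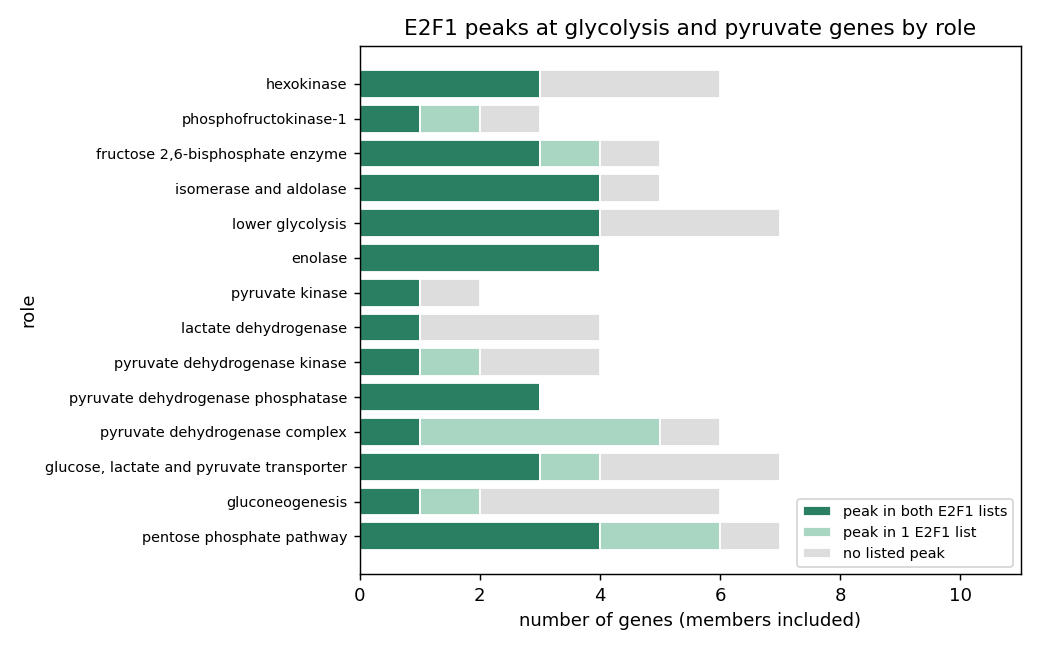
Number of genes (horizontal axis, members included) in each role of the pathway list with a peak in both E2F1 lists (dark green), in 1 list (light green) or in none (grey). The 4 enolases and the 3 pyruvate dehydrogenase phosphatase genes all have peaks in both lists, against 1 of 4 lactate dehydrogenases and 1 of 4 pyruvate dehydrogenase kinases. Over all protein-coding genes the share is 34.4%.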

How the data were processed

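ChIP-seq peak lists of 4 libraries were used, 1 list per library. The submitters' processing notes name Bowtie2, MACS2 and build mm10, without versions or settings. Each of the 10-column lists holds the deposited fold enrichment (a ratio to local background), the deposited −log10 p and −log10 q, and the authors' peak score, 10 times the −log10 q as a whole number. All deposited p-values lie below 1e-10. Spans and promoter windows came from RefSeq (GRCm38.p6, the assembly of mm10). All 69 symbols of the pathway list, in 14 roles, matched.

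Peaks were assigned by overlap with the span widened by 1000 bp. Pileup and local background were solved from fold, taken as pileup plus 1 over background plus 1, and a Poisson p. A whole-number pileup within 5% of a step resulted for 95.7% of peaks in EV replicate 1, 99.7% in EV replicate 2, 99.99% in E2F1 replicate 1 and 99.98% in the other E2F1 library. The solver was tested on simulated peaks. No count test fits peak lists, so members are described by counts and ranks, with 1 exact permutation test over libraries. Members, lists and motifs were chosen with earlier results of these data known. All members are named, and of the other pathway genes those with a peak in both E2F1 lists or in an EV list, with values for the 15 highest by mean fold. Further values, given for the housekeeping enzymes, the pyruvate dehydrogenase genes and transporters and for genes listed in 1 library, were chosen after they were seen, as were the summaries by CpG number, nearest start and span length. Python 3.11.15 with pandas 2.3.3 and SciPy 1.17.1 was used.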

Additional observations from a re-analysis of the deposited data

How the results depend on the processing

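Of 80 alternatives computed over 18 results, 71 were kept and 9 were not. Kept meant within 1.5 times a count, within the replicate SD of a value or on the same side of the test. For the value of a single member, leaving out a replicate always stays within the replicate SD, so those alternatives could not fail. The number of members with a peak in both E2F1 lists was 6 at each of the 3 other distances tried, both shorter and longer, and by summit alone. It was 3 with peaks at or above the list's median score, where the number of other pathway genes was 10 against 28, since that setting leaves fewer peaks. It was 3 with peaks at gene boundaries only (Hk2, Eno1 and Pkm), against 30.9% of all protein-coding genes, since the peaks of Hk1, Pfkfb2 and Ldha lie inside the spans, farther than 1000 bp from both ends. With a mutual overlap of 50% it was 4. Without either E2F1 replicate it was 7, and that of other pathway genes ran from 31 to 34. A count from a single E2F1 list cannot be below the count from both. The number of members with an EV peak was 0 under each alternative run for it, and the difference between the groups was 3.5 with the stricter score and 7 without any 1 library.

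The replicate block gave the difference of 7 members the same value, and exact sign flips of the paired differences gave p = 0.5, which 2 pairs cannot go below, and 1 value per library cannot show whether the numbers pair the libraries. The median percentile of the 6 members' highest peaks was 53.1 by fold over both lists, 56.1 to 58.4 in a single list, 48.6 by score and 48.6 by −log10 p. Of the 6 members, Eno1 moved most between these rank measures, from 53.6 by fold to 41.9 by score and 41.9 by −log10 p. The cause was not tested. Sites below the lists' p-value limit were not seen.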

Other observations

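Among genes that feed or branch from the pathway, genes of the pentose phosphate route included the highest E2F1 fold of the pathway list in replicate 2. Rpia, which makes ribose 5-phosphate for nucleotides, reached a fold of 17.1 in the first E2F1 library and 51.1 in the other (rank 182 of 8027), with both summits 25 bp from its start. Tkt, the transketolase that joins this route to glycolysis, had folds of 18.4 and 14.98. Pgls had a mean of 10.5 ± 0.351 (SD, n = 2) and Rpe one of 7.94 ± 1.01, while Pgd and Taldo1 had a peak in replicate 2 only, and G6pdx, the entry enzyme, had none. In all, 4 of these 7 genes had a peak in both lists, against 34.4% of all protein-coding genes.

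Of the transporters, the lactate and pyruvate carrier Slc16a1 had folds of 13.1 and 20.6, and the glucose carrier Slc2a1 of 10.1 and 9.56, the latter with summits 313 bp and 307 bp from the predicted gene Gm52706 and 317 bp and 311 bp from its own start. Slc2a3, Slc2a4 and Slc16a3 had no listed peak. Of the mitochondrial pyruvate carrier genes, Mpc2 had a peak in both lists and Mpc1 in replicate 1 only. The Mpc2 summits were 1110 bp and 100 bp from its own start, and 313 bp and 697 bp from that of Dcaf6. Of the gluconeogenesis genes, Pck2 had a peak in replicate 1 only, and Pck1, Fbp1, Fbp2 and G6pc had none. Pcx had its highest peaks, of 9.73 and 12.1, 408 bp and 110 bp from the start of Lrfn4, and lower ones of 4.17 and 4.92 at 195 bp and 126 bp from a start of its own.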
